A study of Homo sapiens with 83 samples.

Results

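Genes of the integrated stress response centred on the transcription factor ATF4 were followed in parallel cultures of human neuroblastoma cells with N-MYC activated or not. The 10 genes were chosen by symbol: ATF4, ATF5, DDIT3, DDIT4, ASNS, CHAC1, TRIB3, SESN2, PPP1R15A and CEBPB. Each symbol named 1 entry, so 10 of the 60237 genes in the deposited table are described. SHEP and SKNAS are neuroblastoma lines that express N-MYC-ER all the time, an N-MYC fused to the hormone-binding part of the estrogen receptor, which enters the nucleus only when 4-hydroxytamoxifen (4OHT) is given. Cells received 4OHT (MYC-ON) or ethanol (MYC-OFF), then dexamethasone to set their clocks, and circadian time (CT) counts the hours since dexamethasone. Every group therefore carried the fusion and received dexamethasone, and since no cells without the fusion were analysed here, 4OHT and active N-MYC cannot be told apart. RNA was sampled every 4 h from CT24 to CT76. SHEP had 2 series of 14 libraries in each condition, and SKNAS had 1 series, of 14 MYC-OFF and 13 MYC-ON libraries, the latter without CT76.

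In the integrated stress response, kinases that sense amino acid shortage, misfolded protein in the endoplasmic reticulum, viral RNA or lack of heme phosphorylate the translation factor eIF2. Protein synthesis slows as a whole, while the ATF4 mRNA is translated better, and ATF4 then switches on genes for amino acid uptake and synthesis, tRNA charging and, when stress lasts, cell death. N-MYC drives growth and protein synthesis, which raises the demand for amino acids.

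The values are TPM, transcript levels that are divided by gene length and scaled to sum to 1000000 in each library, so levels of different genes can be compared. The study gives an average read depth, but the depth of each library is unknown. Libraries of SHEP were alike, with medians of log2(TPM + 1) over the tested genes from 3.93 to 4.17. Those of SKNAS spread from 2.76 to 4.38, and 10 of the 14 MYC-OFF but only 3 of the 13 MYC-ON libraries had a median of at least 3.8. Since all CT of a series were taken in the same run of the experiment, p-values reflect how much libraries vary rather than how much repeated experiments do. Mesenchymal neuroblastoma markers were present at a median of at least 1 TPM for 7 of 8 in MYC-OFF cells of both lines, and adrenergic markers for 3 of 8 in SHEP and 5 of 8 in SKNAS. In SHEP the summed adrenergic markers ran from 43.2 to 64.5 TPM in MYC-OFF and from 70.8 to 98.6 TPM in MYC-ON, without overlap, and the mesenchymal sum overlapped, and their part in the members' differences was not tested. Of 5 markers of other cell types none reached a median of 1 TPM in SHEP. In SKNAS, PTPRC, a leukocyte phosphatase, had a median of 94.5 TPM in MYC-OFF and 17.7 TPM in MYC-ON, and EPCAM 1.10 TPM in MYC-ON, so that the summed level of the 5 ran from 13.3 to 132.4 and from 3.54 to 62.1 TPM, with the T cell marker CD3E at 0 in every library. The part of PTPRC in the SKNAS results was not tested. In bulk RNA, fewer cells expressing a gene and less RNA per cell cannot be told apart.

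Short stretches upstream of a RefSeq start site (GRCh38.p14) are shown for the members that hold a sequence read by ATF4 or by MYC. They were searched for TGATGNAA, the core of the composite element bound by ATF4 with a C/EBP partner, and for CACGTG, the E-box bound by MYC, on both strands of 300 bases around each start, 250 before it and 50 after. TGATGNAA was found for 2 of the 10 members, ASNS and CHAC1, and in 3.62% of all 35116 windows. CACGTG was found for ATF4 alone, and in 7.26% of all windows. The 10 members had 18 windows, so a count of members and a share of windows are not the same measure. The capitals mark the match, CHAC1 holds it as the reverse complement, and a match is a description and not a bound site.
ASNS, minus strand, chr7:97872458-97872487, match from 68 bases before the start: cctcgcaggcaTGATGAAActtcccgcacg
CHAC1, plus strand, chr15:40953251-40953280, match from 209 bases before the start: ctcccctgccgTTGCATCActcctgccagg
ATF4, plus strand, chr22:39520466-39520493, match from 82 bases before the start: gaggagacggtCACGTGgtcgcggcgga
All 3 stretches lie inside the gene spans that Gencode 44 gives for ASNS (chr7:97851677-97872542), CHAC1 (chr15:40952962-40956512) and ATF4 (chr22:39519695-39522683).

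In SHEP MYC-OFF the members fell into 3 tiers by median TPM over 28 libraries. CEBPB (92.1 TPM), ATF4 (90.6) and DDIT4 (84.6) led, ATF5 (31.5), TRIB3 (31.3), ASNS (29.9), DDIT3 (26.9) and PPP1R15A (24.8) followed, and SESN2 (15.2) and CHAC1 (9.91) were lowest. Every gene overlapped in range with its neighbours in this order, also between tiers. In SHEP MYC-ON the order changed: ATF4 was first at a median of 152.6 TPM and ASNS had moved up to 102.6 TPM, beside CEBPB (107.9) and DDIT4 (106.9). In SKNAS MYC-OFF, DDIT4 (131.9 TPM) and ATF4 (112.9) led, while SESN2 (3.78) and CHAC1 (1.98) were near the bottom of what was tested.

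The first comparison asked how the members differed between MYC-ON and MYC-OFF in SHEP. Of the members, 8 were called higher in MYC-ON, 1 was called lower and 1 was not called, by limma with CT as a factor (adjusted p of at most 0.05 over 14362 genes and at least 0.15 on the log2 scale). Over all genes tested, 33.0% were called higher and 38.9% lower, so a call by itself is common in this comparison. The median log2 difference was 0.38 over the 10 members and -0.04 over all genes. The members were chosen with earlier results of these data known, so these counts are a description.

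ATF4, the effector itself, ran from 69.5 to 123.2 TPM in SHEP MYC-OFF, with a median of 90.6, and from 115.3 to 193.2 TPM in MYC-ON, with a median of 152.6. In 25 of the 28 MYC-ON libraries it was above every MYC-OFF library, and it was higher in MYC-ON in 28 of 28 pairs of the same series and CT. The difference was 0.72 ± 0.06 (log2, SE, limma, adjusted p = 4.17e-15). Its close relative ATF5, a bZIP factor whose mRNA is also translated under eIF2 phosphorylation, went the other way. ATF5 ran from 27.8 to 46.7 TPM in MYC-OFF (median 31.5) and from 8.50 to 45.5 TPM in MYC-ON (median 19.9). It was lower in MYC-ON in 26 of 28 pairs, with a difference of -0.71 ± 0.09 (limma, adjusted p = 1.05e-09), and 22 of the 28 MYC-ON libraries were below every MYC-OFF library.

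The largest difference among the 10 was that of ASNS, asparagine synthetase, a long-known ATF4 target. ASNS ran from 12.3 to 58.0 TPM in SHEP MYC-OFF (median 29.9) and from 49.96 to 289.0 TPM in MYC-ON (median 102.6), a difference of 1.83 ± 0.18 (limma, adjusted p = 7.73e-13). Only 2 of the 28 MYC-ON libraries were within the MYC-OFF range. TRIB3, a pseudokinase that restrains ATF4 activity, was between 23.7 and 43.5 TPM in MYC-OFF (median 31.3) and between 42.0 and 267.8 TPM in MYC-ON (median 63.5). All but 1 of its MYC-ON libraries were above every MYC-OFF library, and it was higher in 28 of 28 pairs, by 1.07 ± 0.12 (limma, adjusted p = 7.84e-11). ASNS and TRIB3 thus stood nearly clear of their MYC-OFF ranges, as did ATF4.

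DDIT3, which encodes the pro-death factor CHOP, overlapped more. It ran from 17.5 to 46.3 TPM in MYC-OFF (median 26.9) and from 17.6 to 142.6 TPM in MYC-ON (median 37.6), with 9 of 28 MYC-ON libraries above every MYC-OFF library and a difference of 0.71 ± 0.16 (limma, adjusted p = 1.36e-04). DDIT4, an inhibitor of mTORC1 that is also a glucocorticoid target, ran from 38.1 to 106.5 TPM in MYC-OFF and from 38.2 to 271.2 TPM in MYC-ON, a difference of 0.40 ± 0.07 (limma, adjusted p = 1.54e-06). These 2 genes shared their lowest levels between conditions and differed at the top of the range. The DDIT4 top was 1 library, MYC-ON series 2 at CT76, and the next highest value was 178.0 TPM. That library also held the highest TRIB3 (267.8 TPM, next 136.0) and SESN2 (42.5 TPM, next 27.5).

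The other called members differed by less. CHAC1, which degrades glutathione, ran from 4.68 to 19.1 TPM in MYC-OFF and from 5.10 to 25.2 TPM in MYC-ON, a difference of 0.36 ± 0.13 (limma, adjusted p = 0.0112). SESN2, a leucine sensor upstream of mTORC1, ran from 12.9 to 20.4 TPM and from 13.9 to 42.5 TPM, a difference of 0.32 ± 0.07 (limma, adjusted p = 1.85e-04). CEBPB, a bZIP partner of ATF4, ran from 60.5 to 176.3 TPM and from 51.0 to 216.3 TPM, a difference of 0.23 ± 0.08 (limma, adjusted p = 0.00718). PPP1R15A, known as GADD34, brings a phosphatase to eIF2 and so ends the response. It had a median of 24.8 TPM in MYC-OFF (19.5 to 42.0) and 17.9 TPM in MYC-ON (10.8 to 87.3), and its difference of -0.27 ± 0.13 was not called (limma, adjusted p = 0.0569), although 16 MYC-ON libraries were below and 3 above every MYC-OFF library.

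The calls of the weaker members rested on 1 SHEP series or on late CT. In series 1 alone DDIT3 (0.25, limma, adjusted p = 0.131), CHAC1 (0.05, adjusted p = 0.700) and SESN2 (0.12, adjusted p = 0.0353, under the size limit) were not called and PPP1R15A was called lower (-0.53, adjusted p = 0.00102), while in series 2 alone CEBPB was not called (0.18, adjusted p = 0.0840) and PPP1R15A was at -0.0020. ATF4 (0.57 and 0.88), ATF5 (-0.70 and -0.71), ASNS (1.53 and 2.13), TRIB3 (0.69 and 1.44) and DDIT4 (0.32 and 0.49) were called in series 1 and in series 2, in that order of values. Without the libraries of CT64 to CT76, a choice made after seeing the data, PPP1R15A was called lower at -0.63 (adjusted p = 8.71e-09), and DDIT3 (0.32), CHAC1 (0.20) and CEBPB (0.14, under the size limit) were not called. With the 2 series means of each condition as the replicates, CHAC1, SESN2 and CEBPB were not called.

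**Figure D1:**
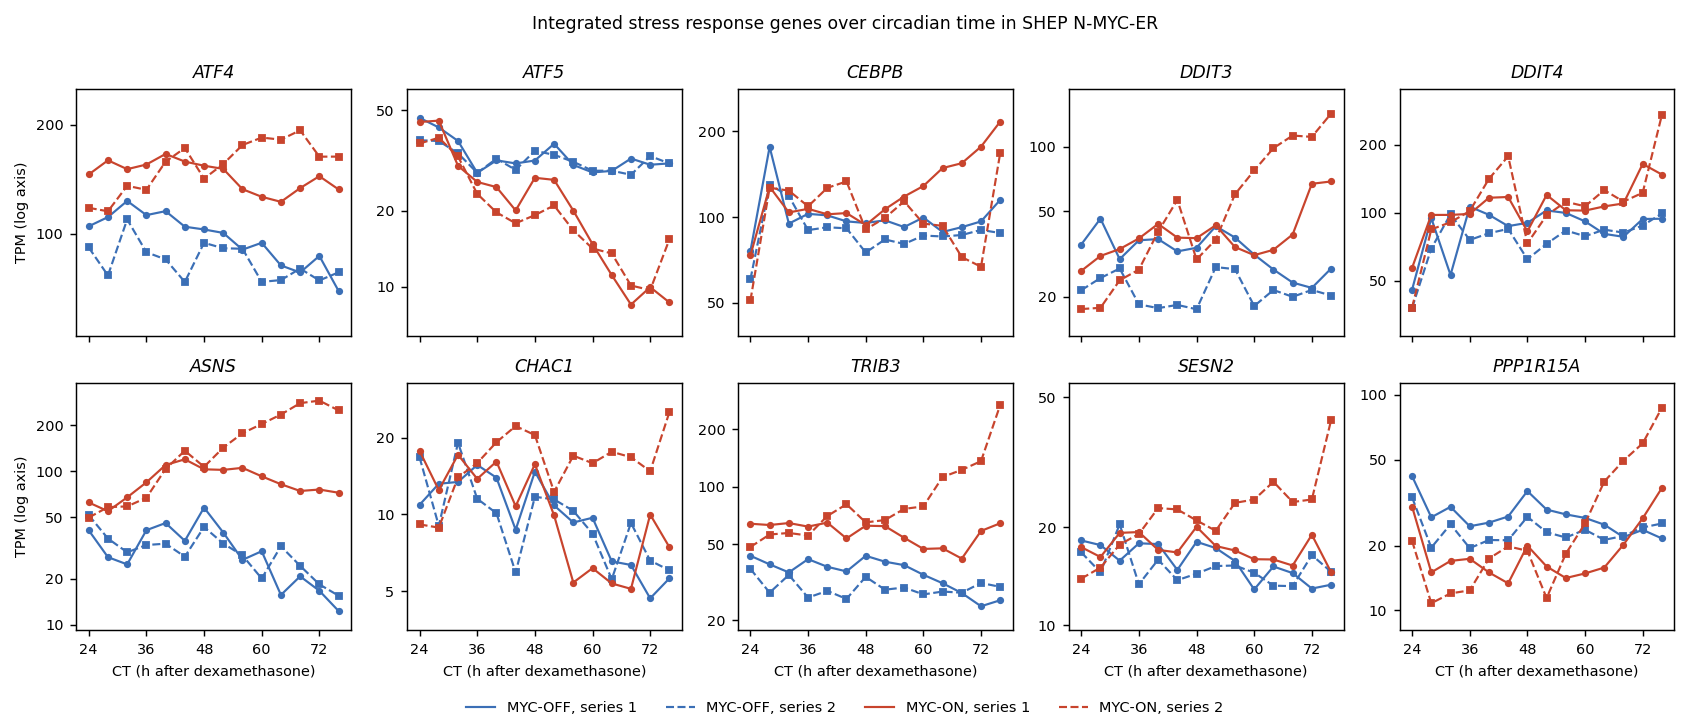
Level of each member in SHEP, in TPM on a log axis, against CT in hours; blue marks MYC-OFF and red MYC-ON, with series 1 as solid lines and circles and series 2 as dashed lines and squares, 1 point per library. ATF4, TRIB3 and ASNS in MYC-ON lie above MYC-OFF over most of the course, ATF5 falls in both MYC-ON series, and the late climb of DDIT3, ASNS, TRIB3 and PPP1R15A is steepest in series 2.

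In SKNAS, 4 members were called higher in MYC-ON, 3 were called lower and 3 were not called. Over 13886 genes, 13.7% were called higher and 34.4% lower, and the median log2 difference was -0.29 over all genes and 0.23 over the 10 members. When each library was rescaled by median-of-ratios size factors, the split of all calls moved from 1903 higher and 4772 lower to 3663 higher and 3448 lower, and the all-gene median to 0.01. The members' SKNAS differences are therefore given with the rescaled value beside them. SKNAS values of other genes are not rescaled unless stated.

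ATF4, ASNS, TRIB3 and DDIT3 were higher in both lines. In SKNAS, ASNS ran from 31.1 to 73.0 TPM in MYC-OFF (median 45.0) and from 74.5 to 214.6 TPM in MYC-ON (median 119.98). The groups did not overlap, and the share of all genes without overlap is not given here. ASNS differed by 1.34 ± 0.14 (limma, adjusted p = 1.55e-06) and by 1.69 after rescaling. DDIT3 was higher in MYC-ON in 13 of 13 pairs, with a median of 17.7 TPM in MYC-OFF (12.2 to 26.0) and 31.4 TPM in MYC-ON (20.4 to 48.6), a difference of 0.78 ± 0.13 (limma, adjusted p = 1.47e-04) and 1.11 after rescaling. TRIB3 ran from 6.02 to 22.4 TPM and from 19.4 to 39.8 TPM, a difference of 0.83 ± 0.17 (limma, adjusted p = 0.00106) and 1.17 after rescaling. ATF4 ran from 101.95 to 132.6 TPM and from 91.9 to 192.1 TPM, with 11 of 13 MYC-ON libraries above every MYC-OFF library. It differed by 0.44 ± 0.10 (limma, adjusted p = 0.00251) and 0.79 after rescaling. Other adjustments moved these values differently. With the library median as a covariate ATF4 was at 0.48, DDIT3 at 0.64, ASNS at 1.53 and TRIB3 at 1.17. In the libraries of high median alone they were at 0.51, 0.57, 1.77 and 0.78.

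SESN2, DDIT4 and PPP1R15A were called lower in SKNAS. SESN2 had a median of 3.78 TPM in MYC-OFF (0.746 to 5.43) and 2.06 TPM in MYC-ON (1.01 to 2.73), and was lower in 11 of 13 pairs, at -0.58 ± 0.16 (limma, adjusted p = 0.00739) and -0.31 after rescaling (adjusted p = 0.0175). DDIT4 had medians of 131.9 TPM (27.7 to 193.8) and 82.9 TPM (31.6 to 135.2) and differed by -0.52 ± 0.21 (limma, adjusted p = 0.0469). PPP1R15A had medians of 23.0 TPM (7.15 to 32.2) and 14.6 TPM (5.07 to 18.2) and differed by -0.55 ± 0.19 (limma, adjusted p = 0.0256). After rescaling, DDIT4 was at -0.17 (adjusted p = 0.292) and PPP1R15A at -0.21 (adjusted p = 0.129), and neither was called. SESN2 stayed called lower under rescaling, with the library median as a covariate (-0.27) and in the libraries of high median alone (-0.62), where PPP1R15A was called lower too (-0.70).

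CHAC1, ATF5 and CEBPB were not called in SKNAS. CHAC1 was low, at medians of 1.98 TPM (0.543 to 2.84) in MYC-OFF and 2.52 TPM (1.83 to 5.23) in MYC-ON, and its difference of 0.45 ± 0.18 (limma, adjusted p = 0.0527) became 0.71 and was called after rescaling (adjusted p = 4.95e-04). ATF5 had medians of 24.3 and 21.3 TPM and differed by 0.01 ± 0.23 (limma, adjusted p = 0.973), or by 0.35, called, after rescaling (adjusted p = 0.0457). In the SKNAS libraries of high median alone neither CHAC1 (0.43) nor ATF5 (0.12) was called. CEBPB had medians of 41.9 and 40.1 TPM and differed by 0.02 ± 0.18 (limma, adjusted p = 0.942), or by 0.36, not called, after rescaling (adjusted p = 0.0669).

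The library median moved with several members in SKNAS MYC-OFF. At CT56, CT64 and CT72, where it was 2.97, 3.09 and 3.08, ATF5 was at 5.85, 8.75 and 7.71 TPM and TRIB3 at 6.02, 8.68 and 9.76 TPM. In the other 11 MYC-OFF libraries ATF5 was at 18.6 TPM or more and TRIB3 at 13.4 TPM or more. DDIT3 was at 18.7, 26.0 and 23.4 TPM there, the second its highest MYC-OFF value, and ATF4 at 101.95, 103.1 and 106.5 TPM, the first its lowest, and ASNS had its highest value at CT56 (73.0 TPM) and its lowest at CT64 (31.1 TPM). The rescaled values bear on the part of these libraries in the differences, and what set their medians was not tested.

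**Figure D2:**
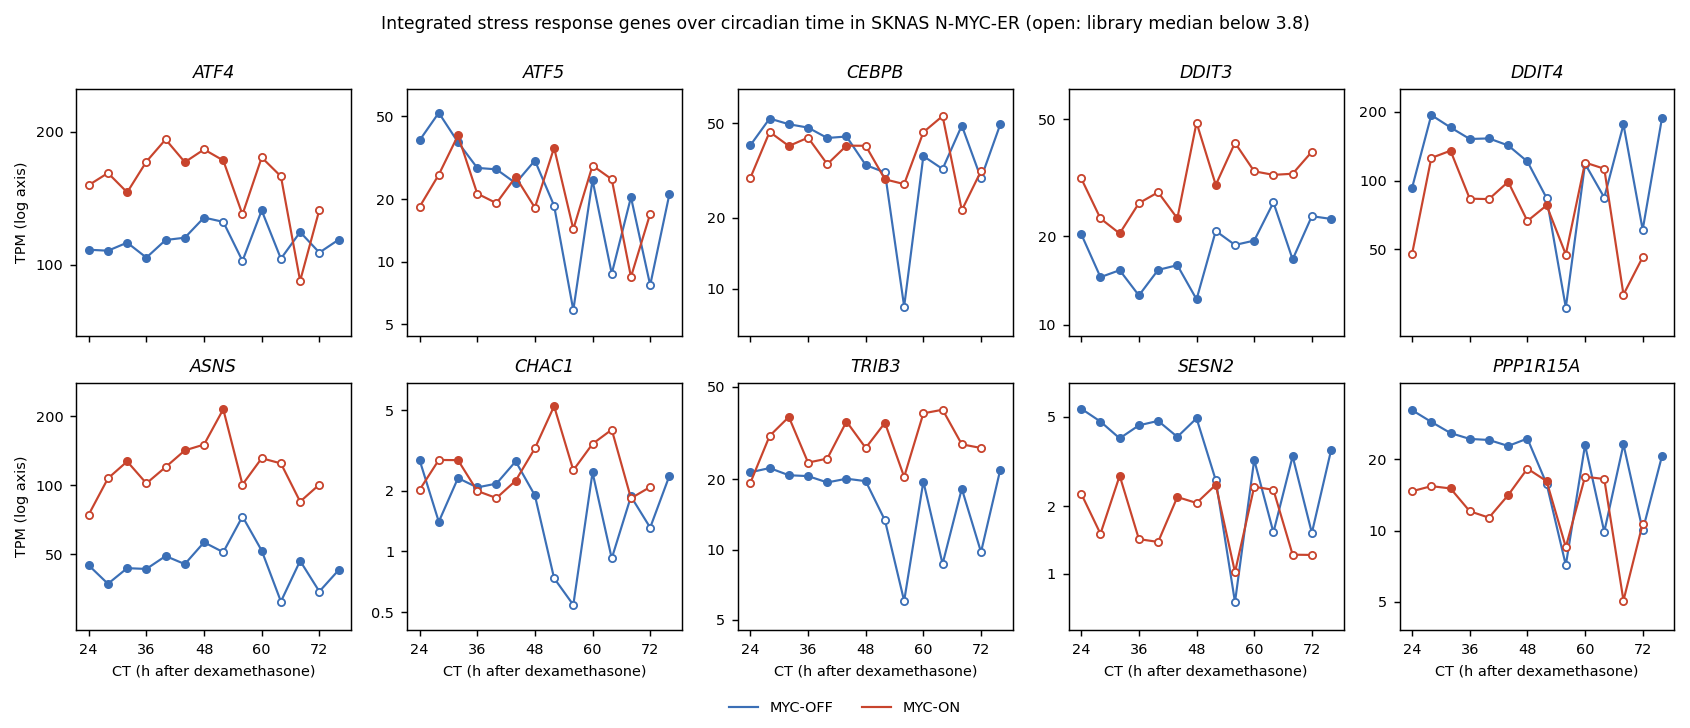
Level of each member in SKNAS, in TPM on a log axis, against CT in hours, 1 point per library; blue marks MYC-OFF, red MYC-ON, and open points are libraries with a median log2(TPM + 1) below 3.8. ASNS and DDIT3 stay apart between conditions at every CT, while ATF5, DDIT4, PPP1R15A and SESN2 dip together at the open MYC-OFF points of CT56, CT64 and CT72.

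The effect of N-MYC was then compared between lines, as the SKNAS difference minus the SHEP difference (limma interaction over 83 libraries, called from 0.66 on the log2 scale). Over 14870 genes, 5.00% were called higher and 16.1% lower, with a median of -0.22. Rescaling changed the split of calls from 743 higher and 2388 lower to 1300 and 1343. Of the members, 3 were called. ATF5 was called higher, by 0.72 ± 0.20 (adjusted p = 0.00202), as it was lower in SHEP MYC-ON and its difference in SKNAS was near 0. DDIT4 (-0.93 ± 0.16, adjusted p = 4.63e-06) and SESN2 (-0.90 ± 0.15, adjusted p = 1.02e-06) were called lower, since they were higher in SHEP MYC-ON and lower in SKNAS MYC-ON. DDIT4 came to -0.65 after rescaling and -0.64 with the library median as a covariate, and SESN2 to -0.65 with that covariate, just under the size limit. ATF5 came to 0.99 after rescaling and 1.16 with the covariate, but at 0.71 it missed the p limit without SHEP series 2 (adjusted p = 0.0566). ATF4 (-0.28 ± 0.11, adjusted p = 0.0226) passed the p limit but was under the size limit, and came to -0.0033 after rescaling. It was at -0.26 with the covariate and at -0.22 in the SKNAS libraries of high median. For ASNS (-0.49 ± 0.29), TRIB3 (-0.24 ± 0.21), DDIT3 (0.07 ± 0.26) and CHAC1 (0.09 ± 0.23) no difference between lines was detectable with these standard errors. The same held for CEBPB (-0.21 ± 0.16) and PPP1R15A (-0.28 ± 0.23).

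**Figure D3:**
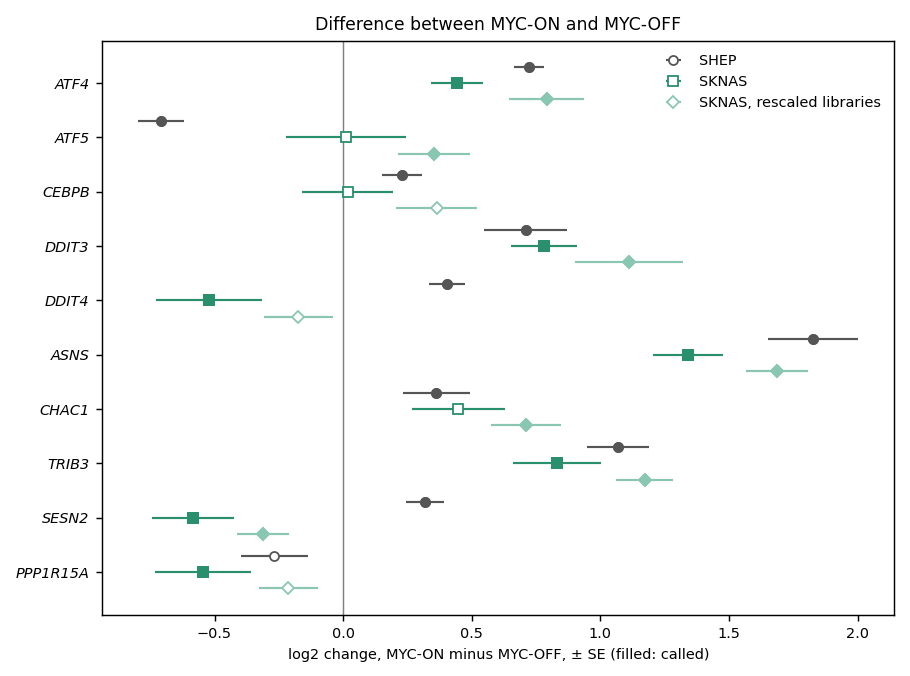
Difference between MYC-ON and MYC-OFF for each member, as log2 change with bars of 1 SE, in SHEP (grey circles), SKNAS (green squares) and SKNAS with rescaled libraries (light diamonds); filled symbols were called. ASNS, TRIB3, DDIT3 and ATF4 lie right of 0 in all 3. DDIT4 and SESN2 are right of 0 in SHEP and left of it in SKNAS, and ATF5 is left of 0 in SHEP only.

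Without active N-MYC the lines also differed in the members' levels. Of 14926 genes 18.7% were called higher and 31.8% lower in SKNAS MYC-OFF than in SHEP MYC-OFF, with a median of -0.18. Of the members, 4 were called lower in SKNAS and none higher. CHAC1 (-1.96 ± 0.12, limma, adjusted p = 7.08e-16) and SESN2 (-1.95 ± 0.10, adjusted p = 2.48e-17) differed most, and in both the groups did not overlap: every SKNAS MYC-OFF library was at or below 2.84 TPM for CHAC1 and 5.43 TPM for SESN2, and every SHEP MYC-OFF library at or above 4.68 and 12.9 TPM. The share of all genes without overlap between the lines is not given here. CEBPB (-1.34 ± 0.12, adjusted p = 5.05e-12) and TRIB3 (-0.95 ± 0.12, adjusted p = 9.92e-09) were lower as well. ASNS (0.64), DDIT4 (0.49) and ATF4 (0.32) were on the higher side in SKNAS but under the size limit. After rescaling ASNS (0.82) and DDIT4 (0.68) were called higher. Line and experiment cannot be told apart in this comparison.

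Over time, members fell in SHEP MYC-OFF. Of the 10, 5 were called lower with later CT and none higher (limma, linear trend per 24 h with series as a covariate), where 2.96% of 14264 genes were called higher and 5.15% lower. ASNS went from 41.2 TPM at CT24 to 12.3 TPM at CT76 in series 1 and from 51.8 to 15.5 TPM in series 2, and fell by 0.56 ± 0.11 per 24 h on the log2 scale (adjusted p = 4.68e-04). CHAC1 went from 10.9 to 5.61 TPM and from 16.8 to 6.04 TPM, and fell by 0.53 ± 0.09 (adjusted p = 9.88e-05). ATF4 (-0.21 ± 0.04, adjusted p = 5.31e-04), TRIB3 (-0.18 ± 0.05, adjusted p = 0.0112) and ATF5 (-0.16 ± 0.04, adjusted p = 0.00897) fell by less. In series 2 alone ASNS was the only one of the 5 called, and without CT24 TRIB3 (-0.16, adjusted p = 0.0700) and ATF5 (-0.11, adjusted p = 0.0881) were not called. ATF5 was not called in series 1 alone either (-0.20, adjusted p = 0.0645), nor after rescaling or with the library median as a covariate (-0.14 in each, under the size limit). DDIT4 had a positive slope that was not called (0.24 ± 0.08, adjusted p = 0.0535). Rescaling changed the split of all calls from 422 higher and 734 lower to 547 and 580.

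In SHEP MYC-ON, with both series together, 7 members rose with CT and 1, ATF5, fell, where 17.1% of 14261 genes were called higher and 30.6% lower. DDIT3 (0.87 ± 0.12, limma, adjusted p = 9.78e-07), ASNS (0.66 ± 0.13, adjusted p = 9.45e-05) and PPP1R15A (0.63 ± 0.15, adjusted p = 8.49e-04) rose most per 24 h, followed by DDIT4 (0.46 ± 0.11, adjusted p = 6.03e-04), TRIB3 (0.34 ± 0.12, adjusted p = 0.0130), CEBPB (0.24 ± 0.11, adjusted p = 0.0499) and SESN2 (0.19 ± 0.07, adjusted p = 0.0184). In series 1 alone 4 of these 7 were not called, ASNS (0.09 ± 0.12, limma, adjusted p = 0.558), PPP1R15A (0.18 ± 0.16, adjusted p = 0.355), TRIB3 (-0.15 ± 0.07, adjusted p = 0.0812) and SESN2 (-0.08 ± 0.05, adjusted p = 0.192), and in series 2 alone CEBPB was not. Of the 5 members that fell in MYC-OFF, ASNS and TRIB3 rose here, ATF5 fell, and ATF4 (0.07 ± 0.05, adjusted p = 0.263) and CHAC1 (-0.17 ± 0.14, adjusted p = 0.303) were not called. ATF5 fell by 0.91 ± 0.07 per 24 h (adjusted p = 4.13e-11), from 45.0 TPM at CT24 to 8.66 TPM at CT76 in series 1 and from 37.0 to 15.4 TPM in series 2. Without CT76 TRIB3 (0.21, adjusted p = 0.0727) and CEBPB (0.12) were not called, and without CT24 SESN2 (0.17, adjusted p = 0.0521) and CEBPB (0.11) were not. Rescaling changed the split of all calls from 2443 higher and 4359 lower to 3324 and 3212.

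The trends differed between conditions for 7 members, of which 6 were more positive in MYC-ON and ATF5 more negative, where 14.5% of 14362 genes were called more positive and 24.5% more negative. The difference was 1.22 ± 0.18 for ASNS (limma, adjusted p = 2.24e-07), 1.04 ± 0.17 for DDIT3 (adjusted p = 1.55e-06), 0.76 ± 0.17 for PPP1R15A (adjusted p = 3.34e-04), 0.53 ± 0.15 for TRIB3 (adjusted p = 0.00324), 0.33 ± 0.09 for SESN2 (adjusted p = 0.00213), 0.28 ± 0.07 for ATF4 (adjusted p = 0.00150) and -0.75 ± 0.08 for ATF5 (adjusted p = 2.74e-10). ASNS shows what this means in levels: at CT24 its ratio of MYC-ON to MYC-OFF was 1.52 in series 1 and 0.965 in series 2, and at CT76 it was 5.90 and 16.1. For ATF5 that ratio went from 0.963 and 0.971 at CT24 to 0.281 in series 1 at CT76, where series 2 had 15.4 TPM in MYC-ON against 30.8 TPM in MYC-OFF. In series 1 alone TRIB3 (0.17, adjusted p = 0.197), SESN2 (0.11, adjusted p = 0.203) and PPP1R15A (0.41, adjusted p = 0.0818) were not called. Rescaling changed the split of all calls from 2077 more positive and 3519 more negative to 2766 and 2820.

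The rise in MYC-ON was not alike in the SHEP series, a comparison added after seeing the data. The trend of series 2 minus that of series 1 was called positive for 7 of 10 members in MYC-ON and negative for none, where 7.87% of 14261 genes were called positive and 4.32% negative. In MYC-OFF it was called for no member, where 0.0280% of genes were called positive and 0% negative (limma, 4 and 0 of 14264 genes, and 1470 at an unadjusted p under 0.05). The gap per 24 h was 1.15 ± 0.15 for ASNS (adjusted p = 5.79e-05), 1.01 ± 0.16 for DDIT3 (adjusted p = 4.55e-04), 1.00 ± 0.20 for CHAC1 (adjusted p = 0.00263), 0.98 ± 0.14 for TRIB3 (adjusted p = 1.14e-04), 0.91 ± 0.26 for PPP1R15A (adjusted p = 0.0225), 0.54 ± 0.09 for SESN2 (adjusted p = 7.97e-04) and 0.40 ± 0.07 for ATF4 (adjusted p = 0.00138).

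The levels show the split directly. ASNS in MYC-ON peaked at 119.7 TPM at CT44 in series 1 and was at 72.5 TPM at CT76, whereas in series 2 it climbed from 49.96 TPM at CT24 to 289.0 TPM at CT72. DDIT3 stayed between 26.4 and 43.7 TPM in series 1 until CT68 and reached 68.9 TPM at CT76, and in series 2 went from 17.6 TPM to 142.6 TPM. TRIB3 was between 42.0 and 64.9 TPM throughout series 1 and went from 48.4 TPM to 267.8 TPM in series 2. PPP1R15A went from 30.3 TPM at CT24 to 13.4 TPM at CT44 and 37.0 TPM at CT76 in series 1, and from 21.0 TPM to 10.8 TPM at CT28 and 87.3 TPM at CT76 in series 2. CHAC1 even had opposite called trends, -0.67 ± 0.14 per 24 h in series 1 (limma, adjusted p = 0.00149) and 0.33 ± 0.13 in series 2 (adjusted p = 0.0426). ATF5 fell in both series, by 1.05 ± 0.10 and by 0.77 ± 0.10 per 24 h on the log2 scale. CEBPB differed the other way without being called: its slope was 0.48 ± 0.09 in series 1 and 0.01 ± 0.17 in series 2. Genes above 0 TPM numbered 21726 to 22839 in the MYC-OFF libraries and were above that range in 11 of 14 series 2 MYC-ON libraries, early ones (23119 at CT24, 24203 at CT36) as well as late ones (24697, 24896 and 25484 at CT64, CT68 and CT72), but not at CT76 (22562), and their part in the rise was not tested. Without CT76, 8 members were called, with CEBPB added at -0.56, and 3625 of all genes in place of 1738.

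**Figure D4:**
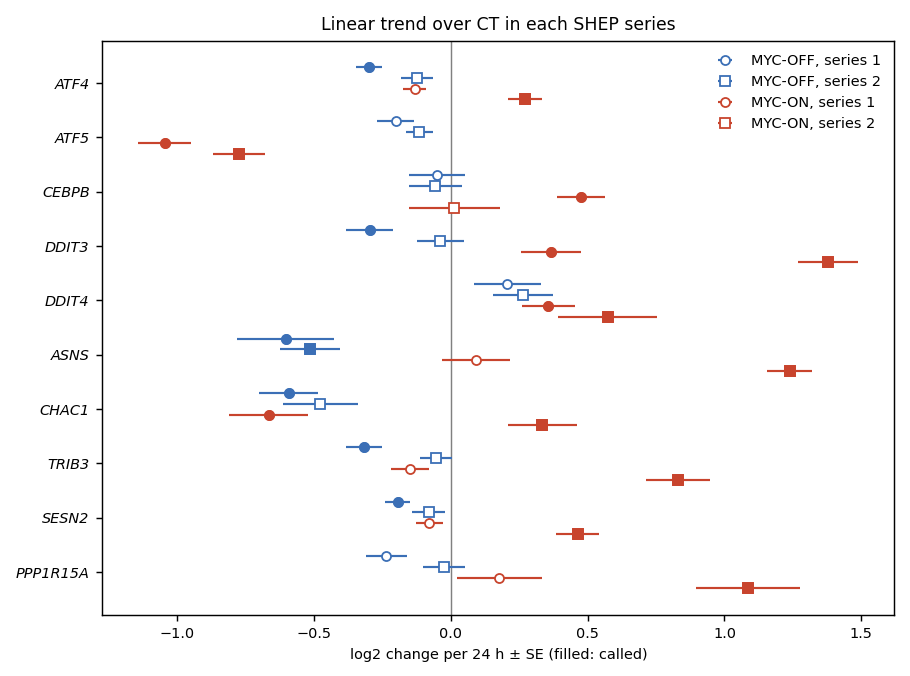
Linear trend of each member in SHEP as log2 change per 24 h with bars of 1 SE, 1 symbol per condition and series (14 libraries each); blue is MYC-OFF, red MYC-ON, circles series 1, squares series 2, and filled symbols were called. In MYC-ON the series 2 squares lie far right of the series 1 circles for ASNS, DDIT3, TRIB3, PPP1R15A and CHAC1, while ATF5 is left of 0 in both.

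DDIT4 and CEBPB shared a step at the start of sampling. CEBPB went from 75.9 TPM at CT24 to 176.3 TPM at CT28 in SHEP MYC-OFF series 1, from 60.5 to 129.9 TPM in series 2, from 73.3 to 127.7 TPM in MYC-ON series 1 and from 51.0 to 126.7 TPM in series 2. In SKNAS it went from 40.4 to 52.4 TPM in MYC-OFF and from 29.4 to 46.0 TPM in MYC-ON. DDIT4 went from 45.7 to 94.7, 38.1 to 69.6, 57.2 to 97.9 and 38.2 to 84.5 TPM in the same SHEP order, and from 93.0 to 193.8 and 47.7 to 125.7 TPM in SKNAS. Both genes were thus higher at CT28 than at CT24 in 6 of 6 series, as were 5.80% of 14870 genes, and no other member was. PPP1R15A and SESN2 were lower at CT28 in 5 of 6, and the share of all genes with that count is not given here. This comparison was chosen after seeing the data and carries no test.

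No member was called rhythmic with a 24 h period. By limma's F test of a cosine and a sine, 0.0631% of genes were called in SHEP MYC-OFF (9 genes), 0.0140% in SHEP MYC-ON (2 genes), and 0% in both SKNAS groups, where 63 and 46 genes had an unadjusted p under 0.05. Those 63 and 46 genes are far fewer than that limit gives with no rhythm at all. The test could thus hardly call a gene in SKNAS, and no conclusion on rhythm is drawn there. ATF5 in SHEP MYC-OFF came nearest, with an amplitude of 0.15 on the log2 scale, a peak 2.18 h after a multiple of 24 h of CT, and an adjusted p of 0.0522. It was called with a pseudocount of 0.1 or with a trended, robust prior variance, and in SHEP MYC-ON its adjusted p was 0.207. In SKNAS no member had a called trend with CT, where 0% of genes were called either way in MYC-OFF (5144 genes at an unadjusted p under 0.05) and 0.0299% higher and 0.0823% lower in MYC-ON. The MYC-ON minus MYC-OFF difference of trends was likewise called for no member, with 0.0288% of genes more positive and 0.0504% more negative. Without the single MYC-OFF library of CT76, ATF5 (-1.07 per 24 h), PPP1R15A (-0.67), SESN2 (-0.64) and TRIB3 (-0.54) were called lower there (limma, adjusted p = 0.0379 for the first 3 and 0.0459 for TRIB3), together with 5668 of all genes.

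The rest of the pathway was described by lists of genes, read against the all-gene shares given for each line. These lists too were chosen with earlier results of these data known, so a count above those shares is a description. Of 12 tRNA synthetase genes that ATF4 is known to induce, 11 were called higher in SHEP MYC-ON and none lower (median 0.41), and 3 higher and none lower in SKNAS (median 0.16, and 8 higher after rescaling). GARS1 (0.82 and 0.81) and LARS1 (0.70 and 0.50), which charge glycine and leucine tRNAs, were called in both lines, in SHEP and SKNAS order, and WARS1, for tryptophan (0.09 and -0.37), in neither. Of 11 amino acid synthesis genes, 8 were higher and none lower in SHEP (median 0.61), and of 10 tested in SKNAS 5 were higher and 1 lower (median 0.48, and 8 higher after rescaling). PSAT1 of the serine pathway (1.42 and 0.99) and MTHFD2 of mitochondrial folate metabolism (1.16 and 0.77) led them, and PHGDH, the first enzyme of serine synthesis, was not called in either line (0.03 and 0.09).

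Amino acid transporters divided. Of 8 in SHEP, 6 were called higher and 2 lower (median 0.45), and of 7 in SKNAS 2 were higher and 2 lower (median -0.06). SLC7A5, the large neutral amino acid transporter, was higher in both lines (1.67 ± 0.05 and 1.58 ± 0.27), and SLC6A9, a glycine transporter, was lower in both (-0.85 ± 0.08 and -1.55 ± 0.27). Of the stress and signalling targets 5 of 12 were higher and 5 lower in SHEP (median -0.04), and 2 of 10 higher and 4 lower in SKNAS (median -0.41), or 3 and 1 after rescaling. EIF4EBP1, the translation repressor 4E-BP1, was higher in both (1.10 and 1.14) and HERPUD1, which serves degradation at the endoplasmic reticulum, was lower in both (-0.66 and -1.05), while TNFRSF10B (-0.04 and -0.67) and ERO1A (-0.03 and -0.13) were called in neither. FGF21, a secreted ATF4 target, did not reach the mean of 1 TPM needed for a test in either line.

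In the branches of the unfolded protein response that do not run through ATF4, the calls were lower. Of 13 genes of the ATF6 and XBP1 arm, 12 were called lower in SHEP MYC-ON and none higher (median -0.47), and 7 lower and none higher in SKNAS (median -0.44, and 5 lower after rescaling). DNAJB9, a chaperone of the endoplasmic reticulum, was lower in both lines (-1.15 ± 0.06 and -0.999 ± 0.17), and so was SEL1L, of the degradation machinery (-0.87 ± 0.08 and -1.22 ± 0.34), while ATF6 itself was not called (-0.10 and -0.44). Upstream, 1 of 4 eIF2 kinases was higher and 2 lower in SHEP, and none higher and 1 lower in SKNAS, or 1 and 1 after rescaling. EIF2AK3, the kinase PERK that senses misfolded protein, was lower in both lines (-0.50 ± 0.05 and -1.22 ± 0.30), and EIF2AK2, the RNA-sensing PKR, was not called (0.00 and -0.38). Of the genes of eIF2, its exchange factor eIF2B and its phosphatase, 8 of 12 were higher and 2 lower in SHEP (median 0.28), and 2 were higher and 3 lower in SKNAS (median -0.01), or 7 and 1 after rescaling. The catalytic phosphatase subunits PPP1CB (-0.81 and -0.91) and PPP1CA (-0.59 and -0.63) were lower in both. PPP1R15B, the constitutive counterpart of PPP1R15A, was called in neither (0.12, under the size limit, and -0.65).

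Of 5 regulators of the kinases, 2 were higher and 2 lower in SHEP and none higher and 1 lower in SKNAS, or 3 and 1 after rescaling. DNAJC3, an inhibitor of the eIF2 kinases, was lower in both (-0.60 and -0.77), and IMPACT, an inhibitor of GCN2 activation, was called in neither (-0.02 and -0.25). Among bZIP partners, 4 of 6 tested were higher and 2 lower in SHEP (median 0.42), and 1 was higher and 1 lower in SKNAS (median 0.04), or 3 and 1 after rescaling. CEBPG, which pairs with ATF4 on amino acid genes, was higher in both (0.79 and 0.58), JDP2 was lower in both (-0.58 and -0.79), and CEBPA was not tested in either. Of 7 dexamethasone-responsive genes tested, 3 were higher and 3 lower in SHEP (median 0.05), and 2 higher and 4 lower in SKNAS (median -0.60). TSC22D3, also called GILZ, was higher (1.49 and 1.48) and MT2A, a metallothionein, lower (-1.59 and -0.94) in both, and ZBTB16 was not tested in either.

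**Figure D5:**
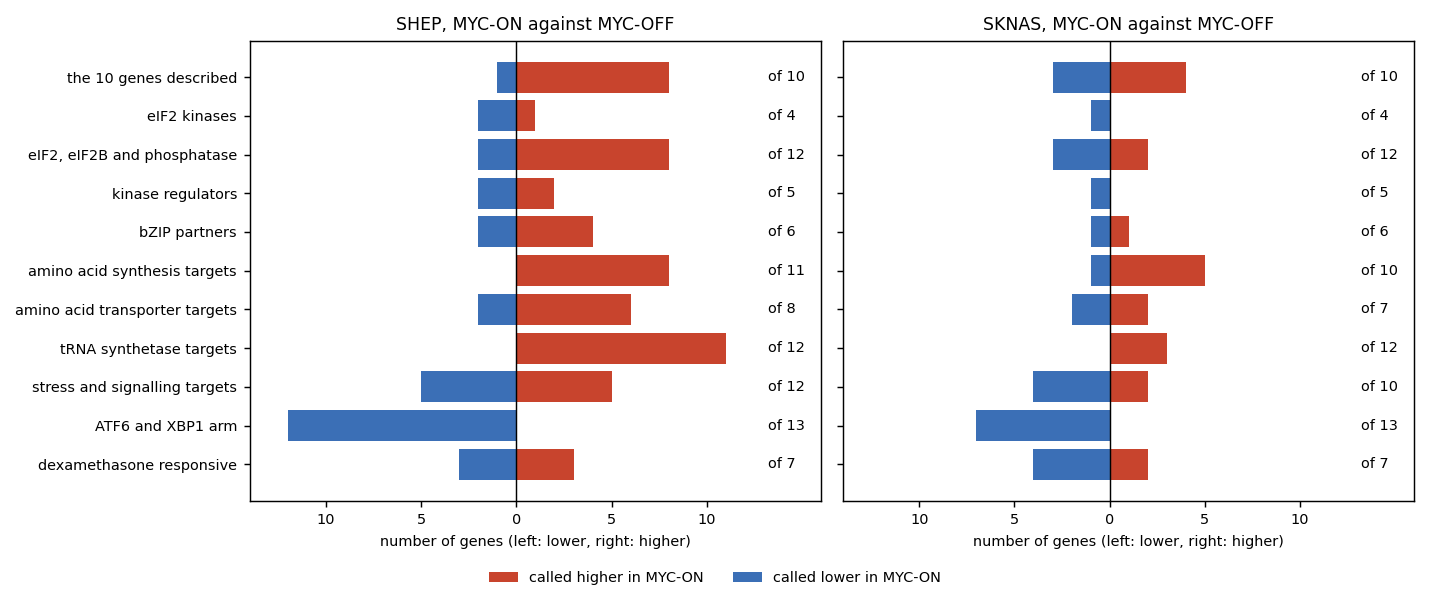
Number of genes called higher (red, to the right) and lower (blue, to the left) in MYC-ON in each gene list, in SHEP and in SKNAS, with the number tested at the right of each row. The tRNA synthetase and amino acid synthesis rows lean to the right, with 11 of 12 and 8 of 11 higher in SHEP, and the ATF6 and XBP1 arm lies wholly to the left, with 12 of 13 and 7 of 13 lower.

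The same lists over time showed where the 2 SHEP series parted. The trend in MYC-ON was called more positive in series 2 than in series 1 for 12 of 12 tRNA synthetase genes (median 0.37 per 24 h), 5 of 11 amino acid synthesis genes (median 0.23), 4 of 8 transporters (median 0.30) and 4 of 6 bZIP partners (median 0.39), against an all-gene median of 0.02 and the 7.87% of all genes given above. In the ATF6 and XBP1 arm none of 13 was called more positive and 1 more negative (median -0.02), and none of the 4 eIF2 kinases was called.

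Genes whose course over CT was most like that of the 10 members together were ranked by the lower of 2 Pearson correlations with the mean of the standardised members, one over 28 MYC-OFF and one over 28 MYC-ON SHEP libraries, with series means removed. The 10 highest were IFRD1 (0.80), SARS1 (0.80), ADM2 (0.79), PMAIP1 (0.79), YARS1 (0.77), CARS1 (0.77), CTH (0.76), MARS1 (0.72), GARS1 (0.72) and AARS1 (0.71). Among them SARS1, YARS1, CARS1, MARS1, GARS1 and AARS1 encode tRNA synthetases, and CTH makes cysteine. The libraries share their CT and experiment, and the ranking needed both series: with series 2 alone 3 of the 10 and with series 1 alone 2 of the 10 were again among the top 10. IFRD1 (1.09), CTH (0.76) and GARS1 (0.82) were higher in SHEP MYC-ON, and in SKNAS MYC-ON too (0.77, 1.17 and 0.81), while PMAIP1, the pro-death gene NOXA (-0.47), and ADM2, a secreted peptide (-0.39), were lower in SHEP MYC-ON. The other 5, at 0.17 to 0.49, were higher in SHEP. In SKNAS those 5, at -0.24 to 0.31, and PMAIP1 (-0.16) were not called, and ADM2 was not tested.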

How the data were processed

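Polyadenylated RNA of 83 libraries was analysed. The deposited values are TPM: per the study's methods and the submitters' processing notes, the authors quantified reads with Salmon 1.3.0 against GRCh38 transcripts and summed them to genes with Tximport. TPM are not counts, so the authors' count model of time and condition was replaced by limma 3.58.1 (R 4.3.3) on log2(TPM + 1), for genes with a mean of at least 1 TPM in the libraries of a fit, with Benjamini-Hochberg adjustment over all of them. A log2 change on this scale understates that of low genes. Calls needed an adjusted p of at most 0.05 and a size of at least 0.15 (0.66 between lines). A symbol listed more than once (961 entries) stood for its entry of highest mean. The depth of each library is unknown, so no counting error is given. SHEP libraries of the same series number were not paired by the data (see the closing section). Genes named from each list were the 2 called in both lines in 1 direction with the largest mean change and those called in neither. The members and lists were chosen with earlier results of these data known. The fits were tested on simulated data with known changes. Of simulated log2 changes of 0.3, 0.6 and 1, the SHEP comparison of conditions recovered 79.1%, 95.5% and 100%. The SKNAS comparison recovered 3%, 29.9% and 63.6% of them. In the simulation few genes changed (66 or 67 at each size, among 12954 in SKNAS), and noise was independent between genes. Far more genes were called in the real fits (6675 of 13886 in SKNAS), so these shares do not carry over to them. A gene not called in SKNAS may still have changed. Alternatives were another pseudocount, no filter, rescaling, the library median as covariate, another prior, series and CT terms, and left-out series, times and libraries. Gene positions are from Gencode 44 and promoter windows from RefSeq (all 10 members matched).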

Additional observations from a re-analysis of the deposited data

Results flagged for a closer look

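Effects that differed between lines, conditions or series by a test of the difference itself are listed here, and their causes were not tested. The effect of N-MYC differed between lines (SKNAS minus SHEP, log2, limma interaction) for ATF5 (0.72), DDIT4 (-0.93) and SESN2 (-0.90). The trend per 24 h in SHEP differed between MYC-ON and MYC-OFF for ATF4 (0.28), ATF5 (-0.75), DDIT3 (1.04), ASNS (1.22), TRIB3 (0.53), SESN2 (0.33) and PPP1R15A (0.76). The trend per 24 h in SHEP MYC-ON differed between series 2 and series 1 for ATF4 (0.40), DDIT3 (1.01), ASNS (1.15), CHAC1 (1.00), TRIB3 (0.98), SESN2 (0.54) and PPP1R15A (0.91), and this last comparison was added after seeing the data.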

How the results depend on the processing

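In SHEP MYC-ON against MYC-OFF, 7 to 8 members were called with either series left out, against 9, and 9606 to 9820 of all genes against 10314. Of 264 counts under an alternative, 225 kept their size within 1.5 times, 21 became smaller and 18 larger. Of the 1178 values of single genes under an alternative, 1047 kept direction and side of the threshold, 56 lost and 33 gained a call, and 42 reversed. The cause of these changes was not tested.

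Calls of the interaction between lines fell from 3 members to 1 and from 3131 genes to 2069 with the library median as a covariate, and to 2036 genes in the SKNAS libraries of high median. With that covariate DDIT3 was at -0.0938 and TRIB3 at 0.0027, in the libraries of high median DDIT3 was at -0.14, and after rescaling TRIB3 was at 0.0444 and CEBPB at 0.0643. With 1 SHEP series left out, DDIT3 ranged from -0.38 to 0.53, CHAC1 from -0.22 to 0.40 and TRIB3 from -0.61 to 0.14.

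The trend of SHEP MYC-OFF was called for 1 to 6 members and 237 to 1320 genes with 1 series left out (against 5 and 1156), and for 3 members without CT24. That of MYC-ON was called for 5 to 9 members (against 8). There, by series, ATF4 ranged from -0.13 to 0.27, TRIB3 from -0.15 to 0.83, SESN2 from -0.0793 to 0.46 and CHAC1 from -0.67 to 0.33, and the trend difference of CHAC1 from -0.0731 to 0.81. In MYC-OFF the trend of series 2 minus series 1, called for 4 genes, was called for 7 with a pseudocount of 0.1, 13 without the filter, 0 after rescaling, 26 with the covariate, 23 with the trended prior, 0 without CT24 and 0 without CT76. In MYC-ON it was called for 1040 genes without the filter and 3625 without CT76, against 1738. Of the 10 genes most like the members, 2 to 3 were found with 1 series.

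In SKNAS the trend in MYC-OFF, called for 0 genes, was called for 1 without the filter, 6 after rescaling, 13 with the covariate, 22 in the libraries of high median and 5668 without CT76, with 4 members. In MYC-ON, against 15 genes, it was called for 168 with the covariate, 29 in the libraries of high median and 2 without CT24. The difference of trends, called for 11 genes, was called for 18 after rescaling, 113 with the covariate, 2 in the libraries of high median and 2 without CT24. The rhythm in SHEP MYC-OFF was called for 1 member with a pseudocount of 0.1 and for 1 with the trended prior. It was called for 15 genes with that pseudocount and 0 to 0 with 1 series, against 9, and in MYC-ON for 1 gene without the filter and 0 to 0 with 1 series, against 2. The rhythm in SKNAS MYC-ON could not be fitted in the 3 libraries of high median.

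Genes named for not being called changed sign. In SHEP, after rescaling, ERO1A was at 0.0132, IMPACT at 0.0183 and TNFRSF10B at 0.0010; with the covariate ATF6 was at 0.0315 and ERO1A at 0.0480. Without CT64 to CT76 PHGDH was at -0.0115 and WARS1 at -0.0215. With 1 series left out the values ran from -0.0559 to 0.0585 for EIF2AK2, -0.0724 to 0.0128 for ERO1A, -0.0555 to 0.0072 for IMPACT and -0.0349 to 0.21 for WARS1. In SKNAS, with the covariate, ATF6 was at 0.16, EIF2AK2 at 0.62, ERO1A at 0.0177, IMPACT at 0.16, PPP1R15B at 0.0733, TNFRSF10B at 0.0447 and WARS1 at 0.31. In the libraries of high median ATF6 was at 0.26, EIF2AK2 at 0.51, ERO1A at 0.31, IMPACT at 0.38, PPP1R15B at 0.0677, TNFRSF10B at 0.0032, WARS1 at 0.12 and CEBPB at -0.29. After rescaling ERO1A was at 0.21 and IMPACT at 0.0883, and without a CT term CEBPB was at -0.0154.

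MYC-OFF and MYC-ON libraries of the same SHEP series and CT were not taken as pairs, since 11 and not all of 14 correlations of their deviations from the group means were over 0.1 (0.0375 to 0.3015, median 0.143). With the replicate block the SHEP comparison called the same number of members, 9, and 10370 genes. Without it in the trends CEBPB in MYC-ON (0.24, limma, adjusted p = 0.0623) was not called. The read depth of each library is unknown.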

Other observations

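The 10 members did not all follow each other over CT. Over 28 SHEP libraries with series means removed, the 45 pairs of members had Pearson correlations from -0.59 to 0.87 in MYC-OFF (median 0.46, 35 above 0) and from -0.70 to 0.87 in MYC-ON (median 0.43, 33 above 0), given as a description. ATF4 and CHAC1 were the closest pair in MYC-OFF (0.87), and TRIB3 and SESN2 in MYC-ON (0.87). DDIT4 ran against PPP1R15A (-0.57) and ATF5 (-0.59) in MYC-OFF, and ATF5 ran against DDIT3 (-0.70) and ASNS (-0.58) in MYC-ON. The libraries share their CT and experiment.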
